A study of Mus musculus with 6 samples.

Results

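The genes of nucleotide synthesis are 38 of the 24499 genes in the count table of day 3 B cells with and without eIF3e. They were chosen by symbol for the step their enzyme catalyzes, not by a measured value. Of them, 17 were grouped under purines, 9 under pyrimidines and 12 under deoxynucleotides. The study deleted *Eif3e*, which encodes a subunit of the translation initiation factor eIF3, in activated B cells of mice. RNA-seq covered sorted iGCBs, in vitro germinal center B cells, in 3 cKO and 3 control libraries, and asks how their transcriptomes differ.

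The cKO mice were *Eif3e* fl/fl with *Cγ1* Cre and the *Rosa26-YFP* LSL reporter on a C57BL/6J background. *Cγ1* Cre acts only once the Ig γ1 constant region is transcribed, so deletion begins after activation in culture, and the YFP+ sort kept cells in which Cre had been active. The labels call the other mice control without a genotype. The YFP+ sort was applied to both groups, and the study used *Cγ1* Cre *Rosa26-YFP* LSL mice as control elsewhere, so both groups carry Cre and the reporter. Naïve B cells of both groups were grown on 40LB cells, a BALB/c 3T3 fibroblast line expressing CD40L and BAFF that had been irradiated at 120 Gy, with IL-4 at 1 ng/ml, and were sorted on day 3. Age and sex of the mice are not given in the sources used here. The labels number the libraries of each group as repeats and the study calls them biological replicates, without saying how many mice each holds.

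Purine synthesis builds the ring stepwise on phosphoribosyl pyrophosphate until inosine monophosphate is made, which then branches to AMP and GMP. Pyrimidine synthesis builds the ring first, joins it to the ribose phosphate to give UMP, and later aminates UTP to CTP. Ribonucleotide reductase turns ribonucleoside diphosphates into the deoxy forms used for DNA, and salvage enzymes recover bases and nucleosides in both pathways. Lymphocytes raise both de novo pathways when they are activated to divide, and inherited loss of *Ada* or *Pnp*, which are salvage enzymes, causes immunodeficiency.

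Gene positions given with a chromosome, start and end are those of GENCODE on GRCm38, the build of mm10. The library totals ranged from 39079582 to 45504570 estimated counts, and a floor of 3 counts was 0.0659 to 0.0768 CPM, the counts scaled to library size after TMM normalization. *Eif3e* RNA averaged 158 ± 13.1 CPM in the cKO libraries against 406 ± 16.5 CPM in the control libraries (SD, n = 3 each), or 39% of control. All 8 B cell markers were detected, with summed levels of 4800 to 5000 CPM in cKO and 4780 to 5090 CPM in control libraries, although 4 of the 8 were higher and 4 lower, *Blk* standing at 55.0% of control. The 6 germinal center markers summed to 267 to 280 CPM in cKO and 336 to 412 CPM in control libraries. Of these 6, 4 were lower and 1 higher, *Gcsam* standing at 14.9% of control. The 6 plasma cell markers summed to 646 to 788 CPM and 831 to 852 CPM, with *Irf4* the largest part of the sum, but they moved apart: *Jchain* stood at 6.24%, *Prdm1* at 45.6% and *Xbp1* at 46.7% of control, *Irf4* at 134% and *Sdc1* at 302%, and *Tnfrsf17* was too low to test. The 12 fibroblast markers, chosen for the feeder cells, summed to 108 to 133 CPM in cKO and 78.6 to 144 CPM in control libraries, with *Postn* and *Lum* at 0 in all. Of 9 tested, 3 were higher and none lower: *Fn1* at 2.10-fold, *Col5a1* at 3.05-fold and *Fbn1*, with 207, 139 and 172 counts in cKO and 0 in every control library. T cell markers summed to at most 0.330 and 0.355 CPM, with *Cd3e* at 0, and 6 myeloid markers to 13.0 to 13.8 CPM and 10.2 to 13.0 CPM, with *Adgre1* higher at 3.9-fold and the other 3 tested not passing. In bulk libraries such as these, fewer cells of a type or state and less RNA per cell cannot be told apart.

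De novo purine and pyrimidine enzymes were mostly higher in cKO iGCBs, whereas deoxynucleotide enzymes were mostly lower or did not pass the test. All 38 genes passed the filter on low counts. By edgeR's quasi-likelihood test with an adjusted p below 0.05, 20 were higher, 10 were lower and 8 did not pass. Over all 13296 genes tested, 24.1% were higher and 24.5% lower, which is 48.6% in either direction. With a change over 1.5-fold as well, 12 of the 38 were higher and 5 lower, against 10.4% and 10.6% of all genes and 21% in either direction. For 31 of the 38 genes all 3 cKO libraries lay on 1 side of all 3 control libraries, as they did for 58.7% of all genes. The median log2 fold change was 0.20 over the 38 genes and −0.004 over all genes tested.

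The steps moved apart. Of the 17 purine genes, 11 were higher, 2 lower and 4 did not pass, with a median log2 fold change of 0.36. Of the 9 pyrimidine genes, 7 were higher and 2 lower, with a median of 0.66, the value of *Nme2*. *Nme1* and *Nme2* are counted among these 9, though their step is not limited to pyrimidines. Of the 12 deoxynucleotide genes, 2 were higher, 6 lower and 4 did not pass, with a median of −0.12. The plot of log2 fold changes by step shows every gene.

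**Figure D1:**
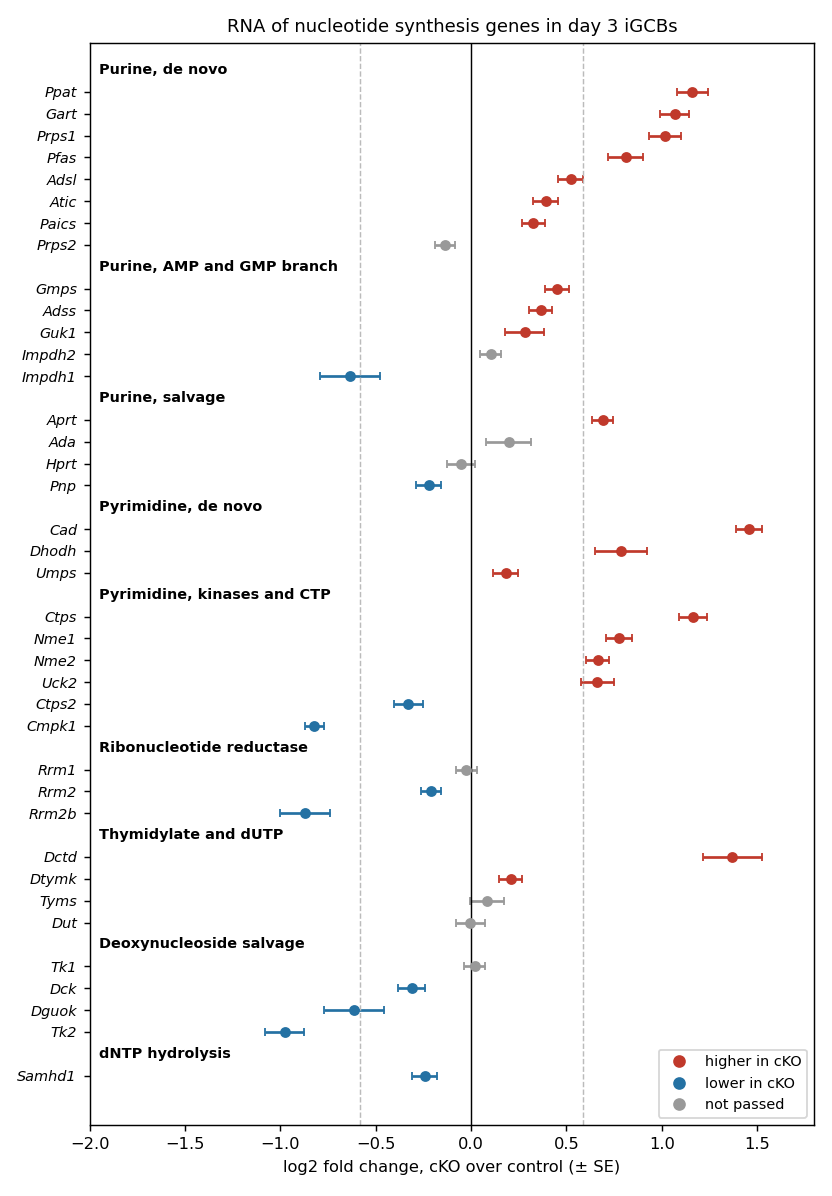
The log2 fold change of each of the 38 genes, cKO over control, with its standard error as the bar, grouped by step; red points passed as higher, blue as lower and gray did not pass, and dashed lines mark 1.5-fold. *Cad* at 1.46 and *Dctd* at 1.37 lie farthest to the right and *Tk2* at −0.98 farthest to the left.

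The summed RNA of each step separated the groups. Purine genes summed to 2282, 2418 and 2145 CPM in the cKO libraries and 1771, 1696 and 1827 CPM in the control libraries. Pyrimidine genes summed to 1435, 1592 and 1458 CPM in cKO and 1060, 1001 and 1073 CPM in control. Every cKO library was above every control library for both sums. Deoxynucleotide genes summed to 1408, 1447 and 1403 CPM in cKO and to 1554, 1483 and 1589 CPM in control, with every cKO library below every control library. These sums are weighted to the genes with the most counts, and no test was made of them. Among the pyrimidine genes *Nme2* weighed most, averaging 486 CPM in cKO and 307 CPM in control libraries.

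Promoter sequence is shown for the gene with the largest rise (*Cad*), for a pair that starts on opposite strands of the same stretch of DNA (*Ppat* and *Paics*), and for *Atic* and *Nme1*, which carry the E-box letters near their start. *Nme1* has 2 annotated starts, of which 1 is shown. Each is the RefSeq sequence of GRCm38.p6 from 250 bases before to 50 bases after the annotated start, written 5′ to 3′ on the strand of the gene. Capitals mark matches to the 4 motifs searched on both strands: CACGTG, the E-box that MYC and MAX bind; TTTCCCGC and TTTGGCGC, of the E2F family; and TGATGNAA, of ATF4. No matches overlapped each other.
Cad, plus strand, chr5:31054530-31054829: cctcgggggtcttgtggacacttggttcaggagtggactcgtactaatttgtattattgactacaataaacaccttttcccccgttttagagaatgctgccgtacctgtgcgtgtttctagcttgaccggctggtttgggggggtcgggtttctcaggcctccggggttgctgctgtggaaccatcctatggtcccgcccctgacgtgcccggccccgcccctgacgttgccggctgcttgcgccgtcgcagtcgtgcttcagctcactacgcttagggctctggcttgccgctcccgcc
Ppat, minus strand, chr5:76951529-76951828: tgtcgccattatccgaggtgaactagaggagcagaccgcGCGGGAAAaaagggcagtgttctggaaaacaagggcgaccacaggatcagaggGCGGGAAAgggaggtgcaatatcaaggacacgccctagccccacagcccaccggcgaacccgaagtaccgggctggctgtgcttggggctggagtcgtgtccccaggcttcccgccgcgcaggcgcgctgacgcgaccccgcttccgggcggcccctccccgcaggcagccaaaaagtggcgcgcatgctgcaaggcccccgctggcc
Paics, plus strand, chr5:76951052-76951351: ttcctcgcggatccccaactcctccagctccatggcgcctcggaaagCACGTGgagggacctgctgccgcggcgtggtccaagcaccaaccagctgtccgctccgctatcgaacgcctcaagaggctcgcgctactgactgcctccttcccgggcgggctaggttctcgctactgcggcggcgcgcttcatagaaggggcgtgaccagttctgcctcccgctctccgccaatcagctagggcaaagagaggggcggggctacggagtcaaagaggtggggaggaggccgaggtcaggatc
Atic, plus strand, chr1:71556906-71557205: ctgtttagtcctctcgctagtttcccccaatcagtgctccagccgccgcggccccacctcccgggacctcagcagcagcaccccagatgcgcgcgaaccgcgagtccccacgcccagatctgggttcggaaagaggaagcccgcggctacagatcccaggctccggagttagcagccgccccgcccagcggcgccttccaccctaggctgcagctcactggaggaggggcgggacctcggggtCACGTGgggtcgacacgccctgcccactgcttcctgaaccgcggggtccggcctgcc
Nme1, minus strand, chr11:93967976-93968275: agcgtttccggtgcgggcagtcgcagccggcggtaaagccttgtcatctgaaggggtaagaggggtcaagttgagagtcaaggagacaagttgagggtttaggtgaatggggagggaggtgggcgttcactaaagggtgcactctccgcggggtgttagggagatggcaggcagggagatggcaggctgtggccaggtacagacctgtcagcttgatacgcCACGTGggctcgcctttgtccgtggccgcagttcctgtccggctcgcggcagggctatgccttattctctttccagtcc

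Promoters were found for 35 of the 38 genes, *Pfas*, *Dhodh* and *Rrm2b* having no entry. CACGTG was in at least 1 promoter of 6 of the 35 genes (17.1%), namely *Atic*, *Dtymk*, *Impdh2*, *Nme1*, *Paics* and *Tyms*, against 8.09% of 27025 genes and 7.15% of 32851 promoters. TTTCCCGC was in *Ppat*, where it occurred at 2 places as its reverse complement, and in *Prps2*. These are 5.71% of the 35 genes, against 1.24% of all genes with a promoter and 1.07% of promoters. TTTGGCGC was in none of the 35, against 0.585% of genes and 0.514% of promoters. TGATGNAA was in *Prps1* alone (2.86%), against 4.51% of genes and 3.97% of promoters. The promoter of *Cad* holds none of these letters in this window. The 6 genes with CACGTG included *Nme1*, *Atic*, *Paics* and *Dtymk*, which were higher, and *Impdh2* and *Tyms*, which did not pass. A match describes the letters only, and binding was not measured.

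Purine synthesis starts with phosphoribosyl pyrophosphate synthetase, and of its paralogs *Prps1* was higher while *Prps2* did not pass. *Prps1* (chrX:140456613-140476140, plus strand) was at 106, 120.2 and 98.1 CPM in cKO and 53.2, 49.6 and 57.9 CPM in control libraries. Every cKO library was above every control library, with a log2 fold change of 1.02 (SE 0.08, adjusted p = 8.91e-06). *Prps2* was at 91.5, 96.2 and 93.8 CPM in cKO and 104, 99.5 and 106 CPM in control libraries. The libraries did not overlap, yet the difference missed the threshold (log2 fold change −0.14, SE 0.05, adjusted p = 0.0558).

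*Ppat* (chr5:76913249-76951578, minus strand) encodes the amidotransferase of the committed step, and its RNA more than doubled. It was at 110.1, 117 and 105 CPM in cKO and 49.3, 44.1 and 55.3 CPM in control libraries. The log2 fold change was 1.16 (SE 0.08, adjusted p = 3.78e-06), the largest of the purine genes. *Gart* (chr16:91621186-91646952, minus strand), a trifunctional enzyme of the early ring, was at 189.4, 222 and 188 CPM in cKO and 101, 88.5 and 96.6 CPM in control libraries. Both genes had every cKO library far above every control library, and *Gart* rose by a log2 fold change of 1.07 (SE 0.08, adjusted p = 4.02e-06).

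*Pfas*, another amidotransferase of the early ring, was at 114, 134 and 125 CPM in cKO and 61.3, 76.8 and 75.1 CPM in control libraries. It rose by a log2 fold change of 0.81 (SE 0.09, adjusted p = 5.80e-05). The later enzymes moved less. *Adsl*, which cleaves off fumarate here and again on the way to AMP, was at 104 to 118 CPM in cKO and 74.5 to 80.5 CPM in control libraries (log2 fold change 0.52, SE 0.06, adjusted p = 9.67e-05). *Atic*, which closes the ring to inosine monophosphate, was at 171 to 189.7 CPM in cKO and 127 to 144 CPM in control libraries (0.39, SE 0.06, adjusted p = 0.000636). Both were higher without overlap but by under 1.5-fold.

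*Paics* (chr5:76951307-76967509, plus strand), whose enzyme carries out the middle steps of the ring, was at 335, 347 and 299.5 CPM in cKO and 261, 252.5 and 269.7 CPM in control libraries. It had the smallest rise of the 7 de novo genes that passed, with a log2 fold change of 0.33 (SE 0.06, adjusted p = 0.00150). *Ppat* and *Paics* lie head to head on chromosome 5, and their GENCODE exons share 272 bases on opposite strands. Whether the authors' counting used strand is not given in the sources used here, so reads from the shared bases cannot be told apart. The promoter sequences shown above are those of the 2 starts and share 0 bases. *Impdh2* and *Tk1* likewise share 48 and 83 exon bases with *Ndufaf3* and *Afmid* on the opposite strand, and *Gart*, *Rrm2b*, *Uck2* and *Umps* overlap antisense or noncoding genes that the count table does not list. In all, 7 of the 8 de novo purine genes were higher and 4 were higher by over 1.5-fold.

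After inosine monophosphate, the genes of the branches to AMP and GMP did not move as a unit. *Impdh2*, the main isoform of the dehydrogenase in dividing lymphocytes, was at 328.5, 335 and 299.4 CPM in cKO and 299, 292 and 307 CPM in control libraries. The groups overlapped and the gene did not pass (log2 fold change 0.10, SE 0.06, adjusted p = 0.156). *Impdh1*, the other isoform, was at 47.6, 36.9 and 27.5 CPM in cKO and 61.2, 56.5 and 56.1 CPM in control libraries. It was lower by a log2 fold change of −0.64 (SE 0.16, adjusted p = 0.00756), with the cKO libraries spread widely among themselves. Without cKO replicate 3 the log2 fold change of *Impdh1* was −0.46, which is under 1.5-fold.

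The other 3 genes of these branches were higher by under 1.5-fold. *Gmps*, which aminates XMP to GMP, was at 142 to 160.4 CPM in cKO and 104 to 113 CPM in control libraries (log2 fold change 0.45, SE 0.06, adjusted p = 0.000264). *Adss*, which commits inosine monophosphate to AMP, was at 124 to 139.5 CPM in cKO and 98.4 to 106 CPM in control libraries (0.36, SE 0.06, adjusted p = 0.000630). *Guk1*, which phosphorylates GMP, was at 25.9, 26.3 and 22.9 CPM in cKO and 19.96, 19.1 and 22.8 CPM in control libraries. Its lowest cKO library and its highest control library nearly touched, and its pass was narrow (0.28, SE 0.10, adjusted p = 0.0443) and lost in 7 of 13 alternative fits.

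Purine salvage had 1 riser among 4 genes. *Aprt*, which returns adenine to AMP, was at 125.5, 135 and 127 CPM in cKO and 80.2, 77.1 and 82.8 CPM in control libraries. It rose by a log2 fold change of 0.69 (SE 0.06, adjusted p = 7.40e-06) without overlap. *Hprt*, which does the same for hypoxanthine and guanine, was at 142 to 168 CPM in cKO and 152 to 169.8 CPM in control libraries and did not pass (−0.05, SE 0.07, adjusted p = 0.568).

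*Pnp*, the phosphorylase that frees bases from inosine and guanosine, was at 57.5 to 62.5 CPM in cKO and 65.4 to 73.5 CPM in control libraries. It was lower by a log2 fold change of −0.22 (SE 0.07, adjusted p = 0.0177), a pass lost without cKO replicate 2 (adjusted p = 0.0575), cKO replicate 3 (0.0557) or control replicate 1 (0.0866). It shares 718 exon bases with an overlapping GENCODE gene, *Gm49342*, on the same strand. Its paralog *Pnp2* is 98.5% identical over the aligned coding bases, so counts could be split between them. *Ada*, which deaminates adenosine and deoxyadenosine, was at 18.1 to 20.6 CPM in cKO and 15.02 to 19.6 CPM in control libraries. The groups overlapped for *Ada*, which did not pass (0.20, SE 0.12, adjusted p = 0.197).

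All 3 de novo pyrimidine genes passed as higher in cKO, *Umps* narrowly. *Cad* (chr5:31054780-31078479, plus strand), whose product joins the first 3 enzyme activities in a single protein, was at 306, 368 and 325 CPM in cKO and 123, 119 and 122.5 CPM in control libraries. The lowest cKO library was above the highest control library by more than all 3 control libraries differed among themselves. The rise was the largest of the 38 genes, with a log2 fold change of 1.46 (SE 0.07, adjusted p = 6.20e-07).

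*Dhodh*, the mitochondrial dehydrogenase that makes orotate, was at 28.5, 26.8 and 26.5 CPM in cKO and 12.5, 16.2 and 18.8 CPM in control libraries. It rose by a log2 fold change of 0.79 (SE 0.14, adjusted p = 0.000897). *Umps*, which turns orotate into UMP, was at 61.2, 61.7 and 57.2 CPM in cKO and 53.4, 50.7 and 54.8 CPM in control libraries. The libraries of *Umps* did not overlap, but the change was small and its pass narrow (0.18, SE 0.07, adjusted p = 0.0409). It was lost in 7 of 13 alternative fits, among them the replicate number as a block (adjusted p = 0.0683).

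Beyond UMP, the CTP synthases moved in opposite directions. *Ctps* (chr4:120539868-120570276, minus strand), the isoform that activated lymphocytes depend on, was at 111, 121 and 117 CPM in cKO and 55.1, 46.6 and 53.8 CPM in control libraries. It rose by a log2 fold change of 1.16 (SE 0.07, adjusted p = 2.10e-06). *Ctps2*, the other isoform, was at 43.4, 39.0 and 43.8 CPM in cKO and 52.1, 50.8 and 55.7 CPM in control libraries. Here every cKO library was below every control library (−0.33, SE 0.08, adjusted p = 0.00481).

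*Cmpk1* (chr4:114959336-114987241, minus strand), the kinase that takes UMP and CMP to their diphosphates, had the largest fall among the pyrimidine genes. It was at 158, 159 and 157 CPM in cKO and 294, 272 and 270.2 CPM in control libraries. The cKO libraries lay within a few CPM of each other, and the log2 fold change was −0.82 (SE 0.05, adjusted p = 1.85e-06). Its enzyme acts between those of *Umps* and *Ctps*.

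*Nme1* and *Nme2* encode kinases that convert diphosphates to triphosphates, a step not limited to pyrimidines, and their RNA rose together. *Nme1* (chr11:93956979-93968521, minus strand) was at 166, 185 and 166 CPM in cKO and 101, 94.1 and 108 CPM in control libraries. *Nme2* (chr11:93949814-93956259, minus strand) was at 464, 520 and 474 CPM in cKO and 308, 291 and 321 CPM in control libraries. No library overlapped for either gene, with log2 fold changes of 0.77 for *Nme1* (SE 0.07, adjusted p = 1.16e-05) and 0.66 for *Nme2* (SE 0.06, adjusted p = 1.46e-05). The genes lie on the same strand of chromosome 11 with 720 bases between them in GENCODE. Both share exon bases with a read-through gene, *Gm20390*, that the count table does not list, so their counts are not fully separate. *Uck2*, which salvages uridine and cytidine, was at 98.0, 112 and 91.0 CPM in cKO and 60.4, 60.8 and 69.1 CPM in control libraries (0.66, SE 0.08, adjusted p = 0.000129).

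**Figure D2:**
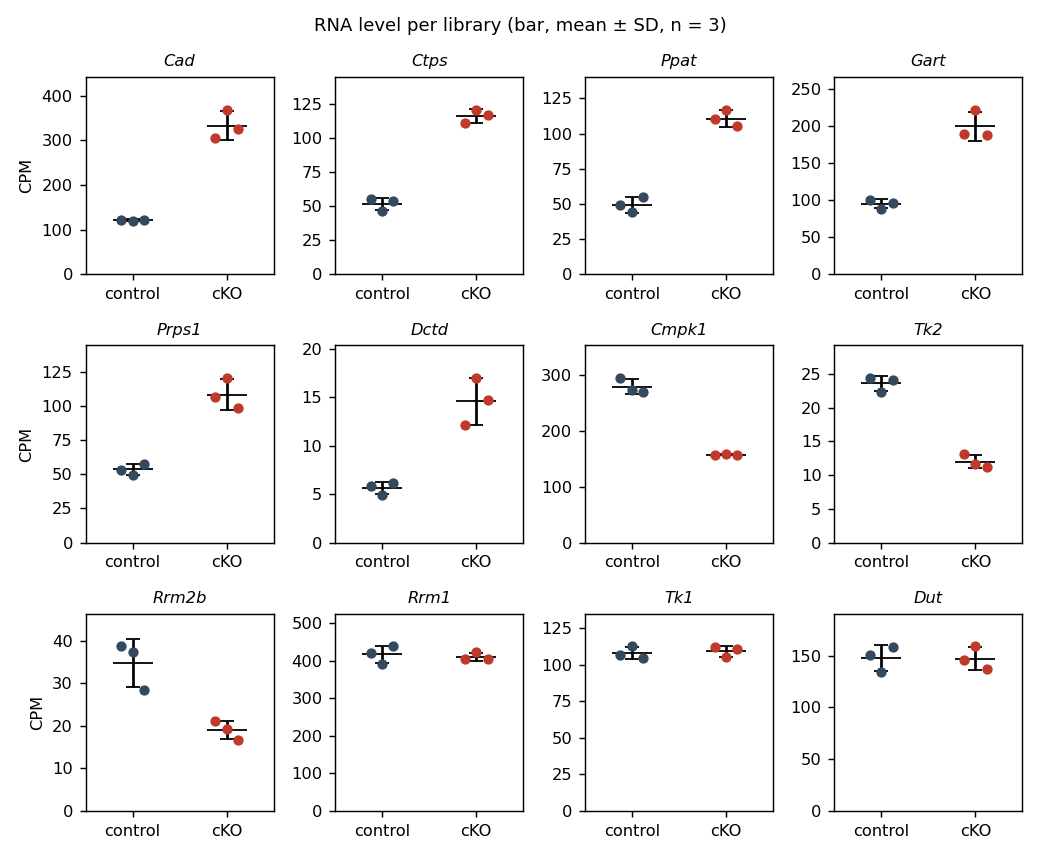
The RNA level in CPM (from 0, linear axis) of 12 genes in each control and cKO library, with the mean and SD of 3 libraries in black. The cKO points lie above all control points for *Cad*, *Ctps*, *Ppat*, *Gart*, *Prps1* and *Dctd*, below them for *Cmpk1*, *Tk2* and *Rrm2b*, and among them for *Rrm1*, *Tk1* and *Dut*.

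Most genes that supply deoxynucleotides did not share the rise, as the plot of 12 genes by library shows for 5 of them. *Rrm1*, the large subunit of ribonucleotide reductase, was at 404, 422.5 and 405 CPM in cKO and 422, 393 and 438 CPM in control libraries. The groups overlapped (log2 fold change −0.02, SE 0.05, adjusted p = 0.742). *Rrm2*, the small subunit made in S phase, was at 241, 252 and 238 CPM in cKO and 292, 269 and 285 CPM in control libraries. It was lower in every cKO library, by a log2 fold change of −0.21 (SE 0.05, adjusted p = 0.00664).

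*Rrm2b* (chr15:37923952-37961318, minus strand), the p53-inducible small subunit that also serves cells outside S phase, fell further. It was at 21.0, 19.3 and 16.7 CPM in cKO and 38.6, 37.4 and 28.3 CPM in control libraries. The log2 fold change was −0.87 (SE 0.13, adjusted p = 0.000390), and the control libraries were more spread than the cKO libraries.

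In thymidylate synthesis 2 of 4 genes passed as higher, *Dtymk* not in every fit, the larger rise being that of *Dctd* (chr8:48099092-48153233, plus strand), the deaminase that makes dUMP from dCMP. It was at 12.1, 16.9 and 14.7 CPM in cKO and 5.85, 4.94 and 6.14 CPM in control libraries. Every cKO library was well above every control library, with a log2 fold change of 1.37 (SE 0.15, adjusted p = 5.86e-05). It was the least abundant of the 38 genes in control libraries on the scale of CPM per kilobase of its transcript, at 2.26 ± 0.253 (SD, n = 3). Its length there was that of a noncoding RefSeq transcript. That transcript held 37.45%, 40.4% and 43.7% of *Dctd* counts in cKO and 53.4%, 35.05% and 41.1% in control libraries.

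*Dtymk*, which phosphorylates dTMP, was at 66.9 to 73.6 CPM in cKO and 58.6 to 62.2 CPM in control libraries (log2 fold change 0.21, SE 0.06, adjusted p = 0.0171), a pass lost without cKO replicate 2 (adjusted p = 0.0729) or control replicate 1 (0.0673). *Tyms*, which methylates dUMP to dTMP, was at 47.9 to 53.9 CPM in cKO and 42.6 to 51.7 CPM in control libraries and did not pass (0.08, SE 0.09, adjusted p = 0.461). *Dut*, which hydrolyzes dUTP, was at 137 to 159 CPM in cKO and 134 to 158 CPM in control libraries (−0.01, SE 0.08, adjusted p = 0.962). The sign of *Dut* turned with another scaling of the libraries, so it is given no direction.

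Deoxynucleoside salvage had no riser. *Tk1*, the S phase thymidine kinase of the cytosol, was at 112, 105 and 110.4 CPM in cKO and 106.5, 112 and 105 CPM in control libraries and did not pass (log2 fold change 0.02, SE 0.05, adjusted p = 0.810). *Tk2* (chr8:104226685-104248558, minus strand), the mitochondrial thymidine kinase, was at 13.1, 11.7 and 11.2 CPM in cKO and 24.3, 22.4 and 24.1 CPM in control libraries. *Tk2* stood at 50.8% of control without overlap, the largest fall of the 38 genes (−0.98, SE 0.10, adjusted p = 3.48e-05). A noncoding RefSeq transcript held 39.5%, 35.7% and 48.4% of its counts in cKO and 23.3%, 24.8% and 39.15% in control libraries.

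*Dguok*, the other mitochondrial deoxynucleoside kinase, was at 7.36, 9.05 and 8.98 CPM in cKO and 10.4, 14.9 and 13.6 CPM in control libraries (log2 fold change −0.62, SE 0.16, adjusted p = 0.00825). *Dck*, the deoxycytidine kinase of the cytosol, was at 111, 106 and 116 CPM in cKO and 149.6, 139.9 and 125 CPM in control libraries (−0.31, SE 0.07, adjusted p = 0.00458). Both kinases were below control in every library. *Samhd1*, which hydrolyzes deoxynucleoside triphosphates, was at 217 to 229.7 CPM in cKO and 248 to 292 CPM in control libraries and was also lower (−0.24, SE 0.07, adjusted p = 0.0119).

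Enzymes with paralogs could be compared within a library, where the scaling between libraries drops out. The log2 ratio of *Prps1* to *Prps2* counts was 0.22, 0.32 and 0.06 in cKO and −0.961, −1.004 and −0.876 in control libraries. *Prps2* had more counts in every control library and *Prps1* in every cKO library. The log2 ratio of *Ctps* to *Ctps2* counts was 1.35, 1.63 and 1.42 in cKO and 0.08, −0.12 and −0.05 in control libraries. Near-equal counts in control libraries thus became an excess of *Ctps* in cKO libraries.

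The cKO minus control difference of the log2 ratio was 1.148 for *Prps1* to *Prps2* and −0.77 for *Impdh1* to *Impdh2*. For *Ctps* to *Ctps2* the mean log2 ratio went from −0.03 ± 0.10 in control to 1.47 ± 0.15 in cKO libraries (SD, n = 3 each). For *Tk1* to *Tk2* the difference was 0.997, for *Rrm2* to *Rrm2b* 0.65 and for *Nme1* to *Nme2* 0.11. None of these 6 overlapped between groups, and each had an exact permutation p of 0.1 (two-sided), the smallest that 3 against 3 libraries can give (adjusted p = 0.117 over 7 pairs). *Dck* to *Dguok* overlapped, with a difference of 0.30 and an exact permutation p of 0.3. The paralogs share 69.8% to 81.2% of their aligned coding bases, with *Dck* and *Dguok* the least and *Nme1* and *Nme2* the most alike.

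**Figure D3:**
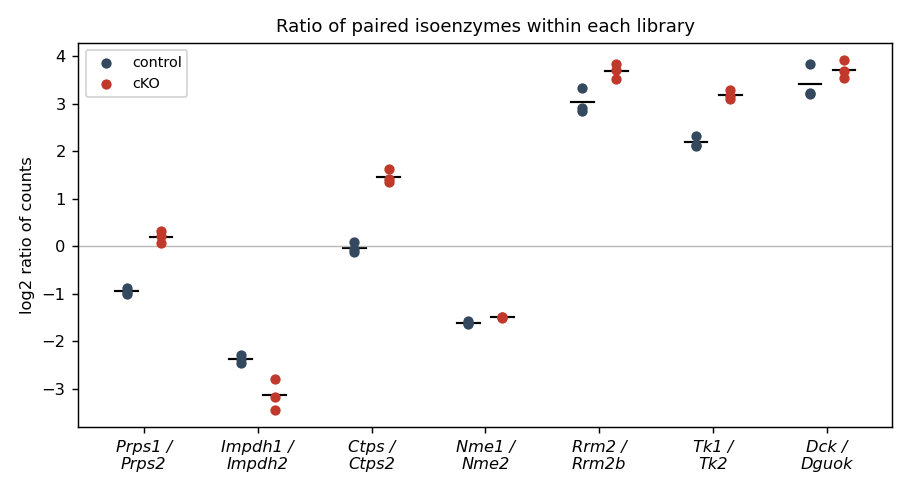
The log2 ratio of counts of 7 paralog pairs in each library, control in dark blue and cKO in red, with the mean of 3 libraries as a black line. The cKO points lie above the control points for *Prps1* to *Prps2*, *Ctps* to *Ctps2*, *Rrm2* to *Rrm2b* and *Tk1* to *Tk2*, narrowly so for *Nme1* to *Nme2*, below them for *Impdh1* to *Impdh2*, and overlap for *Dck* to *Dguok*.

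Per kilobase of transcript, levels can be set against each other between genes. *Cmpk1* was at 88.0 ± 4.19 CPM per kilobase in control and 49.8 ± 0.301 in cKO libraries, and *Cad* at 17.0 ± 0.304 and 46.7 ± 4.45 (SD, n = 3 each). RNAs of the entry enzyme and the kinase were thus at nearly the same level per length in cKO libraries. In control libraries that of the kinase had been far ahead. *Impdh2*, at 161 ± 3.95 in control and 173 ± 10.2 in cKO, exceeded *Impdh1*, at 23.8 ± 1.17 and 15.3 ± 4.13 CPM per kilobase. *Rrm2*, at 129 ± 5.44 and 111 ± 3.43, exceeded *Rrm2b*, at 7.62 ± 1.23 and 4.17 ± 0.473 CPM per kilobase. Lengths are those of the GENCODE transcript that matches the most counted RefSeq transcript.

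Transcript counts were also deposited, and 23 of the 38 genes have a single transcript there. Of the other genes, 13 had at least 2 transcripts that could be tested for a change in relative use. None of the 13 passed at an adjusted p under 0.05 by edgeR's diffSpliceDGE with Simes adjustment, 1 had an unadjusted p under 0.05, and 1.37% of the 2990 genes tested passed. That gene was *Nme2*, whose less used transcript made up 6.35%, 9.57% and 11.9% of its counts in cKO and 3.82%, 2.76% and 6.28% in control libraries (unadjusted p = 0.0155, adjusted p = 0.403). The cKO shares were above the control shares, but the lowest and highest nearly met. *Dctd*, *Tk2* and *Tyms* each have counts on a noncoding RefSeq transcript, so their gene counts are not all of coding RNA.

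Of the purine genes outside the 38, 20 of 23 were tested, 8 being higher and 4 lower, against 24.1% and 24.5% of all genes. *Adk*, which phosphorylates adenosine, was higher by a log2 fold change of 0.98 (SE 0.11, adjusted p = 7.06e-05), *Ak6*, an adenylate kinase of the nucleus, by 0.86 and *Ampd2*, an AMP deaminase, by 0.49. *Adssl1*, the paralog of *Adss*, was lower by a log2 fold change of −1.93 (SE 0.18, adjusted p = 2.02e-05), *Ak4*, a mitochondrial adenylate kinase, by −1.20 and *Gmpr*, a GMP reductase, by −1.08. The paralogs *Adss* and *Adssl1* thus moved in opposite directions. The median of the 20 was 0.19.

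Of 12 other pyrimidine genes, 7 were tested, with 2 higher and 2 lower, against 24.1% and 24.5% of all genes. *Dctpp1*, a pyrophosphatase that clears dCTP and its analogs, averaged 59.3 CPM over the cKO libraries and 23.8 CPM over the control libraries (log2 fold change 1.31, SE 0.10, adjusted p = 4.53e-06). *Uprt*, related to uracil salvage enzymes, was higher by 0.81 and *Uckl1*, a paralog of *Uck2*, lower by −0.34. *Upb1*, of pyrimidine breakdown, passed as lower with 0, 0 and 7 counts in cKO and 21, 16 and 19 counts in control libraries, which is too few for a fold change.

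Among 18 nucleotidases, other kinases and carriers, 6 were higher and 3 lower, against 24.1% and 24.5% of all genes. Their median was 0.17. *Slc29a2*, an equilibrative nucleoside transporter, had the largest rise (log2 fold change 1.72, SE 0.34, adjusted p = 0.00206), followed by *Slc25a33*, a mitochondrial pyrimidine nucleotide carrier, at 0.62 and *Nt5m*, a mitochondrial nucleotidase, at 0.57. *Nt5c2* at −0.41 and *Nt5c3b* at −0.29, both nucleotidases, and *Slc25a36* at −0.22, a second mitochondrial pyrimidine nucleotide carrier, were lower.

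The folate cycle gives purine and thymidylate synthesis their carbon units, and its genes moved in both directions. All 14 folate genes were tested, with 4 higher and 5 lower, against 24.1% and 24.5% of all genes, and a median of 0.16. The cytosolic enzymes *Shmt1* (log2 fold change 1.16, SE 0.08, adjusted p = 3.66e-06) and *Mthfd1* (0.73, SE 0.10, adjusted p = 0.000208) were higher. So were *Slc19a1*, the folate carrier of the cell membrane, at 1.38 (SE 0.12, adjusted p = 1.25e-05) and *Fpgs*, which adds the glutamate tail that holds folate in cells, at 0.51. The mitochondrial enzymes *Shmt2* (−0.89, SE 0.07, adjusted p = 9.17e-06), *Mthfd2* (−0.86, SE 0.06, adjusted p = 2.55e-06) and *Mthfd1l* (−0.69, SE 0.12, adjusted p = 0.000833) were lower. *Aldh1l2*, also mitochondrial, was lower by −1.94. Not every gene of the list that passed is named, and a difference between compartments was not tested.

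**Figure D4:**
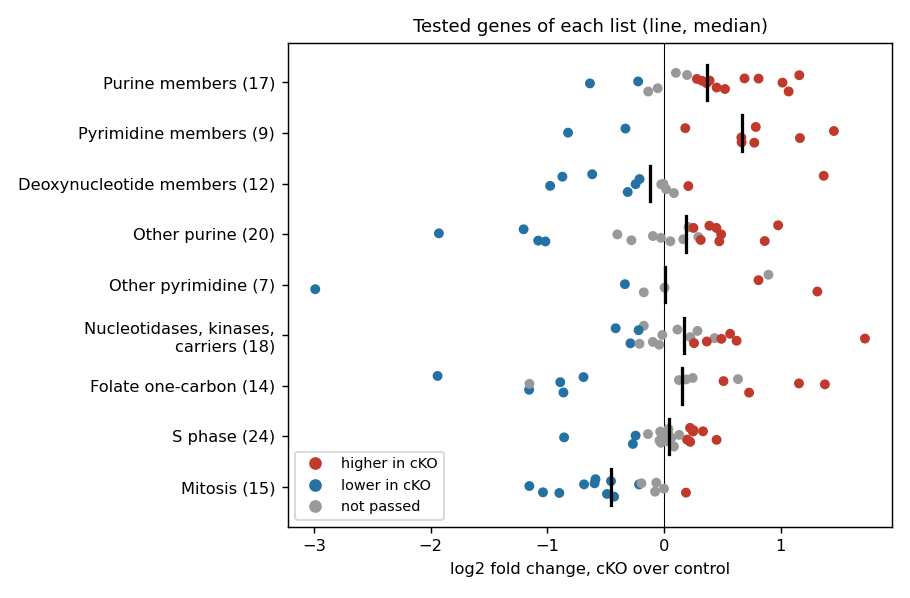
The log2 fold change, cKO over control, of each tested gene in 9 lists, red where it passed as higher, blue as lower and gray where it did not pass, with the median of each list as a black line; the number tested is in brackets. Medians are 0.36, 0.66 and −0.12 for the purine, pyrimidine and deoxynucleotide genes of the 38, 0.04 for S phase and −0.45 for mitosis genes.

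Of 10 transcriptional regulators known to act on nucleotide or cell cycle genes, 2 were higher and 3 lower. Over all genes tested the shares were 24.1% and 24.5%. *Myc*, a known activator of *Cad* and *Ppat*, averaged 259 CPM over the cKO libraries and 254.5 CPM over the control libraries and did not pass (log2 fold change 0.03, SE 0.11, adjusted p = 0.870). Its partner *Max* was higher by 0.63 (SE 0.06, adjusted p = 2.17e-05), and *Mxd4* and *Mlx*, of the same network, were lower by −0.73 and −0.36. *Atf4*, at 0.11, and *E2f1*, at −0.08, did not pass, *E2f2* was lower by −0.82 (SE 0.07, adjusted p = 1.22e-05) and *Rb1* higher by 0.33. RNA levels say nothing of the activity of these proteins.

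Deoxynucleotide genes are tied to S phase, so cell cycle lists were measured beside them. Of 24 S phase genes, 7 were higher and 3 lower, with a median of 0.04, against 24.1% higher and 24.5% lower over all genes. Their summed level was 5318, 5685 and 5333 CPM in cKO and 5577, 5210 and 5620 CPM in control libraries. *Mcm5* at 0.20 and *Pole* at 0.25 were among the higher, and *Cdt1* at −0.86 was the lowest. Of 15 mitosis genes, 10 were lower and 1, *Kif11*, was higher, with a median of −0.45. The mitosis list summed to 3194, 3133 and 3190 CPM in cKO and 4088, 4131 and 3732 CPM in control libraries. The S phase sums overlapped between groups, while the mitosis sums did not. The mitosis, germinal center and plasma cell sums were lower in cKO, as the deoxynucleotide sum was, though single plasma cell and germinal center markers moved both ways, and their part in these results was not tested, nor was that of the B cell, fibroblast and myeloid markers that moved.

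*Prps1*, *Prps2*, *Hprt* and *Ctps2* lie on chromosome X. *Xist*, the RNA of the inactive X, had 53272 counts in cKO replicate 2 and 58899 and 70912 in control replicates 1 and 2, and at most 16 in the other 3 libraries. With the level of *Xist* as a covariate, the calls of these 4 genes stayed as they were, and *Guk1* (adjusted p = 0.0985) and *Umps* (adjusted p = 0.0703) no longer passed.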

How the data were processed

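Per the labels and the methods of the study, the authors took trimmed reads through HISAT2 and StringTie and extracted counts with prepDE. The submitters' processing notes name mm10; versions and strand setting are not given in the sources used here. The deposited estimated counts, 1 table for genes and 1 for RefSeq transcripts, were not normalized and were already whole, so rounding changed nothing. The 6 libraries are 3 cKO and 3 control repeats by their labels, with no mouse named, so p-values measure only the spread between these libraries. The gene counts went through edgeR 4.0.16 (R 4.3.3): filterByExpr with a minimum count of 10, TMM, and the quasi-likelihood test between the groups with no covariate, adjusted by Benjamini-Hochberg over 13296 genes. The fold change cutoff, 1.5, was that of the study, whose tool, DESeq2 (1.42.0 here), was an alternative. Floors cover counting error only, with 3 counts as the floor. Transcript use was tested with diffSpliceDGE.

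All 38 genes are named. Of other lists, the text gives counts and medians and at most the 3 largest changes each way among genes that passed, and any gene of the folate, regulator and S phase lists, of which some are not reported here. The genes and lists were chosen with earlier results of these data known. Positions and transcript lengths are from GENCODE M21 (GRCm38), matched by symbol for 38 of 38 genes, and transcripts were assigned with a RefSeq table, which placed 34669 of 36026. Alternatives were DESeq2, its size factors in edgeR, scaling by totals, no low count filter, a minimum of 10 counts in each library, the replicate number as a block, *Xist* as a covariate, a test against 1.5-fold (glmTreat), and each library left out in turn. Replicate libraries differed by more than sampling noise. The fits were tested on simulated data.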

Additional observations from a re-analysis of the deposited data

How the results depend on the processing

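Of the 38 genes, 28 kept their direction and their side of the adjusted p threshold under all 13 alternative fits; 26 of these passed in every fit. *Guk1* and *Umps* lost their pass under 7 of the 13, *Pnp* under 3 and *Dtymk* under 2, while *Prps2* (without control replicate 2) and *Impdh2* (without cKO replicate 3) gained one under 1. Genes near 0 changed sign: *Hprt* ranged from −0.112 to 0.0134 and *Rrm1* from −0.0754 to 0.0128 over fits that each left out 1 library. *Dut* turned to 0.00192 with DESeq2's size factors, 0.00349 with DESeq2 and 0.000728 with at least 10 counts in every library, and lay between −0.08 and 0.0474 over the fits without 1 library. *Tk1* lay between −0.00177 and 0.0463. Testing for changes beyond 1.5-fold with glmTreat left 2 genes lower in all, 0 purine genes and 1 deoxynucleotide gene lower, and 3 pyrimidine genes higher, by construction a stricter test. With each library left out, the purine genes lower numbered 1 (without cKO replicate 2 or 3 or control replicate 1) to 3 (without control replicate 2), those lower by over 1.5-fold 0 to 1 (0 without cKO replicate 3), and the deoxynucleotide genes higher 1 (without cKO replicate 2 or control replicate 1) to 2. The median of the deoxynucleotide genes ranged from −0.166 (without control replicate 2) to −0.0811 (without control replicate 3); the cause was not tested. Replicate numbers were not shown to pair the libraries: deviations of same-numbered libraries correlated at 0.00851, 0.0839 and 0.133, and cKO replicates 1 and 2 and control replicate 1 did not correlate best with their own number. The study used paired t tests for growth, death and surface proteins of cultured control and cKO iGCBs. It does not say whether the RNA-seq libraries were paired. With the number as a block, *Guk1* and *Umps* did not pass, the other 36 genes kept their calls, and 6234 genes passed in place of 6468. Isoenzyme ratios kept their sign throughout, and with 2 against 3 libraries an exact p cannot fall below 0.2. At these depths, 3 counts correspond to at most 0.0768 CPM, far below the least abundant of the 38 genes.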
